A study of Mus musculus with 12 samples.

Results

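The Zfp genes of mouse chromosomes 7, 13 and 17 encode zinc finger proteins, and 178 of them were found among the 54532 genes of the deposited expression tables. A gene was taken when its name is Zfp followed by digits, with a trailing letter allowed, and its chromosome is 7, 13 or 17. By this rule 95 genes lie on chromosome 7, 38 on chromosome 13 and 45 on chromosome 17. In the GENCODE M21 annotation 173 of the 178 are protein coding and 5 (Zfp264, Zfp419, Zfp939, Zfp389 and Zfp640) are pseudogenes. The same name rule found 222 Zfp genes on the other chromosomes, which are set beside them below.

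Most mammalian zinc finger genes of this naming encode arrays of C2H2 fingers, small zinc-binding loops that read DNA bases, and many carry a KRAB domain at the start of the protein. KRAB proteins bind the corepressor TRIM28, which brings the histone methyltransferase SETDB1 and leaves the repressive mark H3K9me3. These genes arose by tandem duplication, stand in clusters and often share long stretches of similar sequence. ATRX is a chromatin remodeller that works with DAXX to place histone H3.3, and it is reported to bind H3K9me3-marked zinc finger gene clusters.

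RNA was taken from hippocampus of mice aged 3 months, and 12 libraries fall into 4 groups of 3, namely Atrx-cKO females, control females, Atrx-cKO males and control males. The cKO mice carry a conditional deletion of the X-linked Atrx gene in neurons, so other cells of the hippocampus keep the gene. The labels name no Cre driver. The design text speaks of 3 pairs of cKO and control mice of each sex, and the p-values below measure the spread between these libraries. The question for these genes is whether their RNA differed between cKO and control hippocampus, in each sex.

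What the genes share in sequence is the finger unit, shown here because repeats of it bear on how far reads of one gene can be told from those of another. The pattern searched was ACNGGNGANAANCC, which covers the codons of the linker between neighbouring fingers. It was searched in frame and on the coding strand only, in the longest coding sequence of each gene in the GENCODE M21 transcripts (GRCm38). At least 1 match was found in 145 of the 173 coding genes (83.8%) and at least 3 in 119 (68.8%), with a median of 5 and a highest number of 18 in Zfp808. Among Zfp genes of the other chromosomes 67.4% held a match, and among all coding genes 2.21%. The runs below start and end with a linker, printed in capitals, and enclose 1 finger, so that the repeat is 84 bases long. Zfp322a and Zfp146 had the highest levels, Zfp260 and Zfp708 lie in the large chromosome 7 and chromosome 13 clusters, and Zfp229 was called when cKO females 2 and 3 were left out.
Zfp322a, coding bases 478 to 575: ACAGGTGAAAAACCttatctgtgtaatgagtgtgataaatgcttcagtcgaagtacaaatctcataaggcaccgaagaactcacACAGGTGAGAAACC
Zfp146, coding bases 283 to 380: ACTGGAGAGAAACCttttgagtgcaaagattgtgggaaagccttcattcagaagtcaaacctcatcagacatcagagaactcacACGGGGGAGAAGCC
Zfp260, coding bases 628 to 725: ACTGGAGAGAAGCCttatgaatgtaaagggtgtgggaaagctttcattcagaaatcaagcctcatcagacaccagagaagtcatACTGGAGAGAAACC
Zfp708, coding bases 850 to 947: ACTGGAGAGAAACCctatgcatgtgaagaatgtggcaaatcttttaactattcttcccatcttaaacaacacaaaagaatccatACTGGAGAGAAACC
Zfp229, coding bases 1003 to 1100: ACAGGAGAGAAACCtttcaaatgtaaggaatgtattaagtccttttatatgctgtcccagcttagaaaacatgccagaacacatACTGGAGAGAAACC

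Despite this repeat, most of the genes could be told apart over windows of 75 bases. Of the 178 genes 65 shared no exact window with another gene, 73 shared under 10% of their windows and 40 shared at least 10%. The values of these 40 are uncertain, since reads can be split between genes that share windows. Sharing does not always mean a copy, because windows matching the opposite strand of another gene were also counted. For some of the 40 the gene sharing most was antisense, as for Zfp784 (94.7%, Zfp865), Zfp456 (60.8%, Gm17039) and Zfp213 (49.9%, Gm26695). Whether reads of such genes were told apart by strand is unknown, since strand use is not given. Zfp708 shared 94.3% of its windows with other genes, with the gene model Gm28557 sharing most, and Zfp58 shared 44.8%. Zfp955a and Zfp955b shared 37.1% and 36.5%, each with the other as the gene sharing most. Zfp346, Zfp369, Zfp110 and Zfp57 held no linker match, and none of the 4 shared more than 0.30%.

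The libraries differ in a background that touches these genes. The olfactory and vomeronasal receptor genes are taken to be silent in hippocampus, yet the median coverage over 1437 of them was 0.307, 1.97 and 2.25 FPKM in cKO females 1 to 3, against 0.180, 0.0867 and 0.602 FPKM in control females 1 to 3. It was 0.0206, 0.286 and 0.0176 FPKM in cKO males, against 0.0278, 0.0130 and 0.00664 FPKM in control males. FPKM is the number of fragments scaled by transcript length and by mapped fragments in the library, and mapped depth was between 1.16 gigabases (cKO female 2) and 8.64 gigabases (cKO male 3). cKO females 2 and 3 thus stand apart from the other 10 libraries. The tests below therefore use a level from which this background was subtracted, scaled between libraries, and the female counts and the female genes of smallest p are also given without them. Marker sums below are of deposited FPKM, with no background taken off. Those of hippocampal excitatory neurons were 658 to 1124 FPKM in cKO females and 1071 to 1137 FPKM in control females. In males they were 886 to 910 FPKM in cKO and 895 to 1009 FPKM in control, and all 6 of 6 markers were above 0 in every library. Summed markers of interneurons (57.1 to 85.9 FPKM in cKO females, 88.3 to 125 FPKM in control females), microglia (25.5 to 33.4 against 35.7 to 41.1) and thalamus and habenula (27.7 to 37.7 against 21.4 to 23.3) did not overlap between the female groups. Choroid plexus markers ranged from 32.8 to 39.9 FPKM in cKO females, 17.8 to 5758 FPKM in control females, 47.6 to 2511 FPKM in cKO males and 1318 to 4024 FPKM in control males. No gene of these lists was at 0 in any library, and the part of these differences in the results below was not tested.

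The targeted gene was lower in the cKO libraries of both sexes. Atrx had 31.0, 36.1 and 38.2 FPKM in cKO females, against 55.6, 58.8 and 63.6 FPKM in control females. It had 34.2, 32.3 and 36.5 FPKM in cKO males, against 46.9, 40.2 and 42.1 FPKM in control males. All 6 cKO libraries lay below all 3 controls of their sex, with p = 0.1 in each sex by an exact two-sided permutation test, the smallest that 3 against 3 can give, and p = 0.005 over both sexes, the smallest that test can give. On the subtracted level the log2 change of Atrx was -0.87 in females (limma adjusted p = 0.0201), -0.47 in males (limma adjusted p = 1) and -0.67 as the mean of both (limma adjusted p = 0.0138). The sign held in all alternatives run, but the call did not: the limma adjusted p ranged from 0.000833 to 0.342 in females and from 0.00117 to 0.249 in the mean. With females alone in the fit it was 0.212. The female call was lost on leaving out any 1 of the 6 controls, cKO female 2 or cKO male 1, at adjusted p from 0.0516 to 0.140. The call in the mean was lost on leaving out any 1 of the 6 controls or cKO male 1, at adjusted p from 0.0504 to 0.0781. In RNA from whole tissue, fewer cells of a type and less RNA per cell cannot be told apart.

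Zinc finger genes of these chromosomes were expressed at low to moderate levels. The mean FPKM over the 12 libraries had a median of 3.92 over the 178 genes, with quartiles of 2.15 and 6.72, and ran from 0.0777 (Zfp784) to 25.4 (Zfp322a). The mean was 10 FPKM or more in 19 genes, from 1 to 10 in 145, and under 1 in 14. Medians were 3.35 FPKM on chromosome 7, 4.12 on chromosome 13 and 4.74 on chromosome 17, and 4.53 for Zfp genes of the other chromosomes. In each library the median over the 178 genes was 3.83, 5.23 and 5.25 FPKM in cKO females and 3.45, 3.54 and 4.07 FPKM in control females. It was 4.06, 4.08 and 3.27 FPKM in cKO males and 3.89, 3.40 and 3.68 FPKM in control males. The highest medians were those of cKO females 2 and 3, where the receptor background was also highest. After subtraction and scaling the medians were 2.14, 1.94 and 1.80 in cKO females, 2.02, 2.12 and 1.99 in control females, 2.36, 2.26 and 2.08 in cKO males and 2.15, 2.15 and 2.25 in control males. These values are not on the scale of deposited FPKM, since they are counted over all exons of a gene, background-subtracted and scaled.

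**Figure D1:**
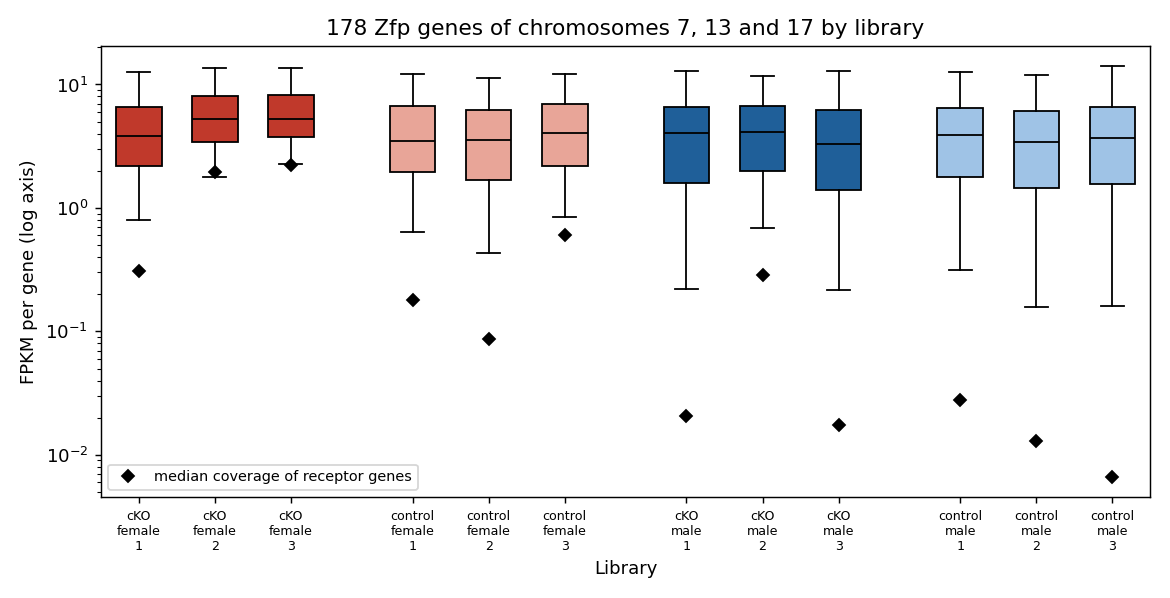
Deposited FPKM of the 178 zinc finger genes in each library (log axis): boxes show the median and quartiles, whiskers the 5th and 95th percentiles, and diamonds the median coverage of the receptor genes. The diamonds of cKO females 2 and 3, at 1.97 and 2.25 FPKM, reach the low end of the zinc finger genes, and in the control males they lie at or below 0.0278 FPKM. Boxes are summed over transcripts and diamonds are counted over all exons of a gene, so their heights are not directly comparable.

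The 8 genes of highest mean level lie on all 3 chromosomes, and none was called. Zfp322a (chr13:23353103-23369208, minus strand, GRCm38), known for a role in pluripotency of embryonic stem cells, had 21.7, 27.7 and 26.3 FPKM in cKO females and 23.0, 21.1 and 24.0 FPKM in control females. It had 24.4, 30.3 and 24.8 FPKM in cKO males and 29.4, 21.8 and 29.8 FPKM in control males, so the groups overlapped in both sexes. Zfp146 (chr7:30161269-30169750, minus strand), whose protein consists almost wholly of fingers, averaged 19.4 ± 1.86 FPKM in cKO females and 20.7 ± 1.196 FPKM in control females, 22.6 ± 1.56 FPKM in cKO males and 21.3 ± 1.05 FPKM in control males (SD, n = 3 each). Zfp369 (chr13:65278814-65304221), a relative of the neurotrophin receptor interacting factor Zfp110, had 21.4, 19.6 and 23.2 FPKM in cKO females, against 24.3, 23.1 and 24.5 FPKM in control females. It had 16.8, 18.7 and 12.8 FPKM in cKO males, against 18.6, 17.04 and 16.3 FPKM in control males. Its groups overlapped in both sexes, and its log2 change was -0.08 (SE 0.121) in females and -0.13 (SE 0.121) in males. Next in level came Zfp131 (14.9 FPKM over the 12 libraries), a BTB-domain zinc finger gene, Zfp367 (14.7), Zfp955b (13.3), Zfp943 (13.1) and Zfp523 (12.3). In males the log2 changes of these 5 genes lay between -0.10 and 0.12, each with a 95% interval that includes 0.

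Of the 178 genes 132 passed the filter on low values, and 46 did not. The filter asked for a subtracted level of at least 1 on average and in at least 3 of the libraries, so the 132 are not all of the genes. The 46 left out had mean levels from 0.0777 to 4.39 FPKM. They include Zfp57, which protects methylation at imprinted loci, with 2.40, 2.14 and 3.45 FPKM in cKO females, 1.85, 1.42 and 2.60 FPKM in control females, 1.60, 1.92 and 1.36 FPKM in cKO males and 2.06, 0.896 and 1.53 FPKM in control males. Zfp568, a KRAB gene known to repress a placental transcript of Igf2, had 1.77, 4.52 and 5.14 FPKM in cKO females, against 1.05, 1.52 and 1.93 FPKM in control females. In males it had 1.01, 1.22 and 0.802 FPKM in cKO, against 0.830, 1.11 and 0.857 FPKM in control. Zfp366, known from dendritic cells, averaged 1.76 ± 0.652 FPKM in cKO females against 0.752 ± 0.0888 FPKM in control females, and 0.546 ± 0.185 FPKM in cKO males against 0.523 ± 0.0704 FPKM in control males. Zfp296, a stem cell factor, averaged 2.64 ± 1.45 FPKM in cKO females against 0.694 ± 0.374 FPKM in control females, and 0.340 ± 0.185 FPKM in cKO males against 0.278 ± 0.0913 FPKM in control males (SD, n = 3 each). For Zfp568, Zfp366 and Zfp296 the high female values were those of cKO females 2 and 3, where the receptor background was 1.97 and 2.25 FPKM, and its part in these values was not tested.

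In males no zinc finger gene of the 3 chromosomes was called between cKO and control hippocampus. Calls use limma with Benjamini-Hochberg adjustment over all 15054 genes tested, at 0.05, and 0.00664% of all genes were called. None of the 132 genes had an unadjusted p under 0.05 either, against 2.33% of all genes. The spread of each gene was estimated over all 4 groups, and the median SE of the 132 genes was 0.198 in males and females alike. The spread between the female libraries thus enters the male p-values and intervals. With males alone in the fit limma called 0 of 138 genes, with 0.0368% of all genes called. The median log2 change of the 132 was -0.00, against 0.03 over all genes, and the lowest and highest were -0.60 (Zfp629) and 0.62 (Zfp180), both named for their place at the ends. The 95% interval lay within a log2 change of 1 either way for 115 genes (87.1%), against 72.0% of all genes. It lay within 0.5 either way for 63 genes (47.7%), against 42.5% of all genes. For the remaining 17 genes the data in males leave room for a change of 2-fold or more in at least 1 direction.

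The genes with the smallest p in males show the size of these differences. Zfp952 (chr17:32993129-33005457) had 11.1, 12.8 and 8.91 FPKM in cKO males, against 4.53, 9.28 and 10.3 FPKM in control males. Control male 1 was low and the groups overlapped, and the log2 change of 0.58 (SE 0.340, limma adjusted p = 1) became 0.08 without that library. Zfp110, the neurotrophin receptor interacting factor, had 7.67, 8.22 and 7.63 FPKM in cKO males, against 8.31, 6.91 and 6.82 FPKM in control males. These overlapped, with a log2 change of 0.14 that was -0.14 on deposited FPKM scaled over genes above 0 in all libraries, and 0.09 on the same values unscaled. Zfp977 (log2 0.23) and Zfp141 (log2 0.14), neighbours on chromosome 7, completed the 4 of smallest p on the higher side. On the lower side stood Zfp27 (log2 -0.32), Zfp646 (-0.43), Zfp87 (-0.18) and Zfp626 (-0.15), and all 8 had a limma adjusted p of 1. Single libraries moved the largest of these values: Zfp646 was -0.11 without cKO male 2 and -0.75 without cKO male 1, and Zfp27 was -0.11 without cKO male 2 and -0.18 without control male 3. Zfp260, a cofactor of GATA4 in heart, had 8.82, 8.72 and 7.87 FPKM in cKO males, against 7.13, 7.48 and 6.93 FPKM in control males. These did not overlap, but its log2 change on the subtracted level was 0.19 (SE 0.295, limma adjusted p = 1).

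In females the genes varied more, and again none was called. In cKO against control females limma called 0 of the 132 genes, with 0.0731% of all genes called. An unadjusted p under 0.05 was reached by 30 genes, of which 16 were on the higher and 14 on the lower side, and this share of 22.7% compares with 29.3% of all genes. The median log2 change was -0.06, against 0.02 over all genes, and its sign depended on the scaling, being -0.34 on deposited FPKM scaled over genes above 0 in all libraries and 0.28 on the same values unscaled. On unscaled deposited FPKM limma called 18 of 176 genes (10.2%), all higher, where 22.7% of all genes were called higher. The all-gene medians under those 2 scalings were 0.34 and 0.88. The lowest change was -1.61 (Zfp346), the highest 2.08 (Zfp419), and the 95% interval lay within a log2 change of 1 either way for 89 genes (67.4%), against 61.9% of all genes. After subtraction 10 of the 132 tested genes, Zfp346 among them, were at 0 in cKO female 2 or 3, as were 40 of all 178.

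**Figure D2:**
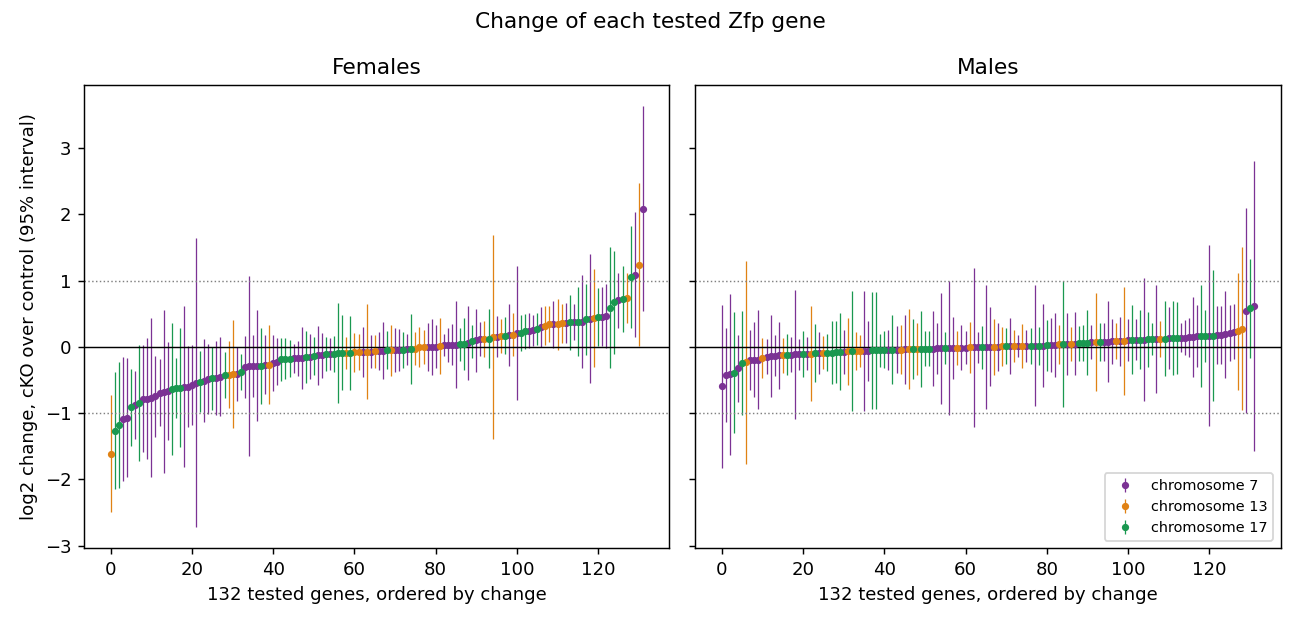
Log2 change of each of the 132 tested zinc finger genes, cKO over control, in females and males, ordered by size within each panel; points are estimates, lines 95% intervals, colours chromosomes, and dotted lines a log2 change of 1. In males the estimates stay between -0.60 and 0.62, in females they run from -1.61 to 2.08.

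On the higher side in females stood Zfp58, Zfp977, Zfp52 and Zfp141. Zfp58 (chr13:67490167-67500555, minus strand) had 4.22, 5.18 and 4.83 FPKM in cKO females, against 2.66, 2.65 and 3.16 FPKM in control females, with no overlap. In males it had 4.999, 4.797 and 2.96 FPKM in cKO, against 4.30, 4.39 and 3.67 FPKM in control, and these overlapped. Its log2 change was 0.74 (SE 0.170, limma adjusted p = 0.114) in females and -0.04 (SE 0.170, limma adjusted p = 1) in males. Zfp977 (chr7:42579783-42592547, minus strand) had 2.29, 3.47 and 4.04 FPKM in cKO females, against 1.49, 1.35 and 2.00 FPKM in control females. The groups did not overlap, and cKO females 2 and 3 were the highest, with a log2 change of 0.70 (SE 0.187, limma adjusted p = 0.114). Zfp52 (log2 0.73) and Zfp141 (log2 0.37) had the same adjusted p. On deposited FPKM scaled over genes above 0 in all libraries the log2 changes were 0.02 for Zfp58, 0.20 for Zfp977, -0.07 for Zfp52 and -0.17 for Zfp141. On the same values unscaled they were 0.66, 0.82, 0.58 and 0.51. Without cKO females 2 and 3 the log2 changes were 0.57 for Zfp58, 0.46 for Zfp977, 0.17 for Zfp52 and 0.12 for Zfp141, each with a limma adjusted p of 1.

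On the lower side in females stood Zfp346, Zfp61, Zfp955a and Zfp955b. Zfp346 (chr13:55105311-55134825), whose protein binds double-stranded RNA, had 4.94, 7.33 and 8.50 FPKM in cKO females, against 7.33, 6.25 and 6.90 FPKM in control females. The deposited values overlapped, and only the subtracted levels, 0.959, 0 and 1.35 in cKO females against 3.11, 2.75 and 2.78 in control females, stood apart. Its log2 change on the subtracted level was -1.61 (SE 0.398, limma adjusted p = 0.114), whereas deposited FPKM averaged 6.92 ± 1.82 in cKO females and 6.83 ± 0.545 in control females (SD, n = 3 each). Zfp61 (chr7:24291039-24301232, minus strand) had 5.51, 5.64 and 6.77 FPKM in cKO females, against 8.44, 7.29 and 6.61 FPKM in control females, with a log2 change of -0.88 (SE 0.231, limma adjusted p = 0.114). Its groups overlapped on deposited FPKM and stood apart on the subtracted level. Zfp955a (chr17:33241519-33255040, minus strand) had 7.59, 5.65 and 6.44 FPKM in cKO females, against 9.28, 8.44 and 7.94 FPKM in control females. These did not overlap on either scale, and cKO females 2 and 3 were the lowest. In males Zfp955a had 11.3, 9.84 and 11.8 FPKM in cKO, against 11.8, 10.4 and 12.4 FPKM in control. Its log2 change was -0.91 (SE 0.262, limma adjusted p = 0.114) in females and -0.07 (SE 0.262, limma adjusted p = 1) in males. Its near copy Zfp955b had 12.6, 7.91 and 9.16 FPKM in cKO females, against 12.9, 14.1 and 12.3 FPKM in control females, a log2 change of -1.27 (SE 0.399, limma adjusted p = 0.114). Reads of this pair can be assigned to either gene, so the 2 values are not independent. Without cKO females 2 and 3 the log2 changes were -0.15 for Zfp955a and -0.04 for Zfp955b, and -0.35 for Zfp61 (limma adjusted p = 1 for each). With the background as a covariate in place of the subtraction they were -0.04 for Zfp955a, -0.01 for Zfp955b and -0.19 for Zfp61. Zfp346 was -1.23 without those libraries (limma adjusted p = 0.171) and -0.79 with the covariate.

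Zfp419, an unprocessed pseudogene singled out after its values were seen, was the gene of largest change in females. It had 1.37, 6.09 and 8.16 FPKM in cKO females, against 0.659, 0.271 and 2.20 FPKM in control females. It had 0.136, 1.29 and 0.128 FPKM in cKO males, against 0.149, 0 and 0.0710 FPKM in control males. The 3 highest libraries for Zfp419, cKO females 2 and 3 and control female 3, were also the 3 with the highest receptor coverage, whose part in its change was not tested. Its log2 change of 2.08 in females (SE 0.701) had a limma adjusted p of 0.115. On unscaled deposited FPKM the limma adjusted p was 0.0493, where 22.7% of all genes were called higher. Without cKO female 1 it was 0.00226 in females, 0.00645 in the mean and 0.0437 for the difference between the sexes. Of all genes 38.6%, 29.7% and 19.3% were called in those comparisons. Without cKO females 2 and 3 Zfp419 did not pass the filter on low values, and with the background as a covariate its log2 change was 0.80.

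**Figure D3:**
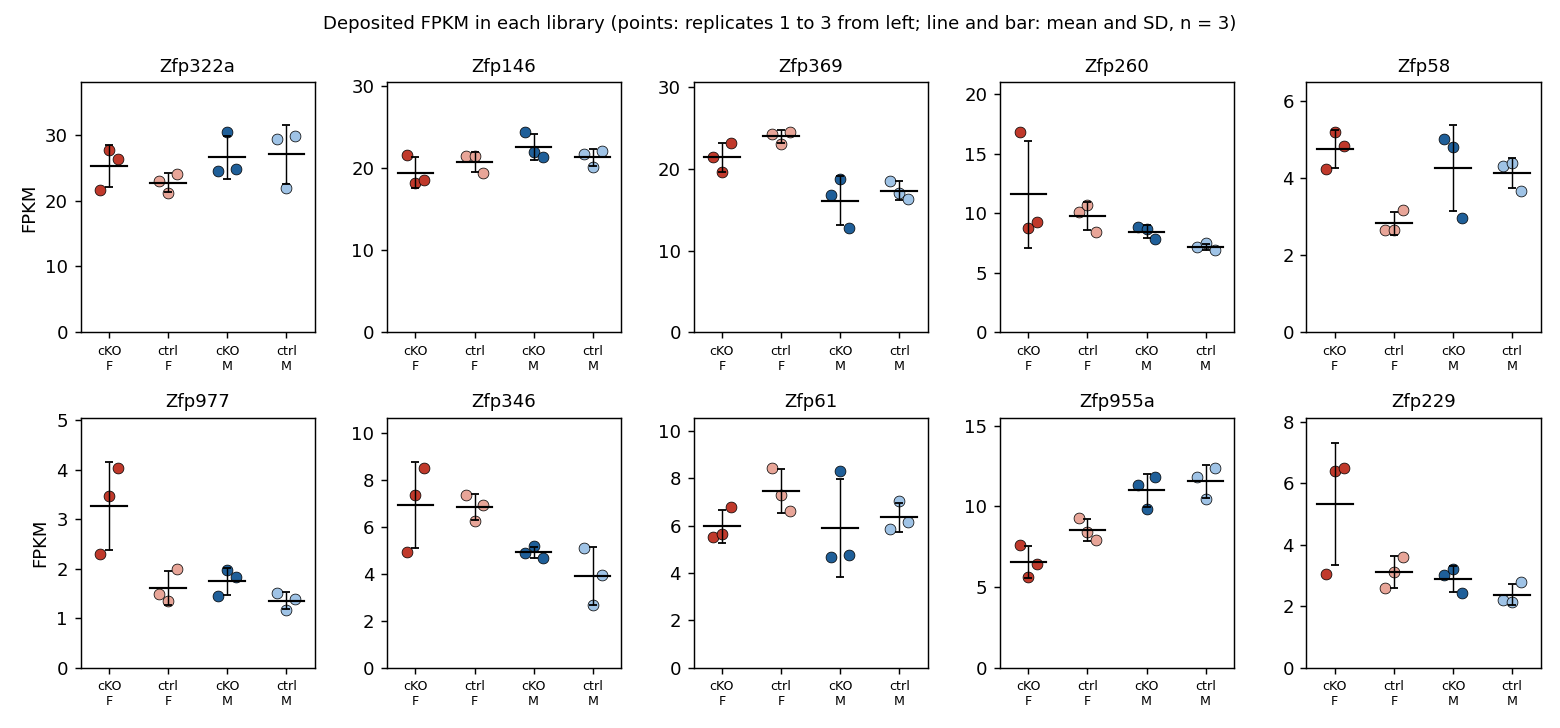
Deposited FPKM of 10 zinc finger genes in each library, with the mean and SD of each group (n = 3). Zfp58 and Zfp977 lie higher in cKO than in control females and Zfp955a lower, without overlap, whereas Zfp322a and Zfp146 overlap between cKO and control in both sexes.

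The female count changed when certain libraries were left out. Without cKO female 1, the cKO female of low background, limma called 47 of 129 zinc finger genes, 22 higher and 25 lower. This share of 36.4% lay beside 38.6% of all genes called in the same fit. Without cKO females 2 and 3, which leaves cKO female 1 as the only cKO female and assumes that it varies like the other groups, limma called 1 gene, Zfp229 (adjusted p = 0.0144), with 0.0856% of all genes called. With control female 3 left out as well the same gene was called (log2 -1.93, limma adjusted p = 0.0420), with 0.0714% of all genes called. Zfp229 (chr17:21730795-21769342) had 3.03, 6.41 and 6.50 FPKM in cKO females, against 2.59, 3.13 and 3.61 FPKM in control females. Its subtracted levels were 0.0172, 0.687 and 2.07 in cKO females and 1.30, 1.38 and 1.24 in control females. The deposited value of cKO female 1 thus lay within the controls while its subtracted level lay far below them, and over all 12 libraries the log2 change was -0.64 (SE 0.448, limma adjusted p = 0.357).

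Averaged over both sexes, limma called 0 of the 132 genes, with 0.0332% of all genes called. An unadjusted p under 0.05 was reached by 18 genes, 9 on each side, a share of 13.6% against 20.3% of all genes. The median log2 change was -0.03, against 0.01 over all genes, but 0.18 on unscaled deposited FPKM, against 0.55 over all genes, and -0.25 on deposited FPKM scaled over genes above 0 in all libraries, against 0.25. The smallest p belonged to Zfp977 (log2 0.46), Zfp141 (0.26), Zfp58 (0.35) and Zfp367 (0.23) on the higher side, and to Zfp27 (-0.51), Zfp61 (-0.50), Zfp955a (-0.49) and Zfp346 (-0.69) on the lower side. Their limma adjusted p lay between 0.222 and 0.227. Zfp367, described as an activator of fetal globin in human erythroid cells, had 12.97, 14.2 and 14.3 FPKM in cKO females, against 12.8, 10.8 and 12.1 FPKM in control females, and 18.8, 16.5 and 17.4 FPKM in cKO males, against 16.2, 13.3 and 17.5 FPKM in control males. The female groups did not overlap and the male groups did. Without cKO female 1 limma called 33 zinc finger genes in the mean (25.6%, against 29.7% of all genes), and without cKO females 2 and 3 it called 1, Zfp229 (adjusted p = 0.0474, against 0.0714% of all genes called).

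The male minus female difference of the cKO effect was not called for any of the 132 genes by limma, nor for any of all genes (0.0%). An unadjusted p under 0.05 was reached by 5 genes, a share of 3.79% against 6.22% of all genes. These were Zfp346 (difference of log2 changes 1.85, SE 0.563), Zfp58 (-0.78, SE 0.241), Zfp61 (0.75), Zfp955a (0.83) and Zfp110 (0.31), each with a limma adjusted p of 0.586. For Zfp346, Zfp58, Zfp61 and Zfp955a the larger effect was that of females. Without cKO female 1 the difference was called for 23 zinc finger genes, 17.8% of those tested, against 19.3% of all genes.

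Genes whose 3 cKO libraries all lay above or below the 3 controls of their sex were also counted. On subtracted levels the cKO libraries were higher for 8 of the 132 genes in females (6.06%, against 10.2% of all genes) and lower for 11 (8.33%, against 7.51%). In males they were higher for 7 (5.30%, against 7.41%) and lower for 5, namely Zfp553, Zfp939, Zfp592, Zfp626 and Zfp708 (3.79%, against 4.64%). On deposited FPKM 23 genes were higher in cKO females (17.4%, against 10.9%) and 4 were lower (3.03%, against 7.85%), namely Zfp871, Zfp955a, Zfp382 and Zfp758. In males 9 were higher on deposited FPKM (6.82%, against 7.07%) and 1, Zfp708, was lower (0.758%, against 2.86%). In both sexes 1 of the 132 genes, Zfp78, was higher without overlap on deposited FPKM (0.758%, against 1.38% of all genes tested), and 0 were lower (against 0.81%). Among all 178 genes 2 were higher in both sexes, Zfp78 and the untested pseudogene Zfp264. Zfp78 had 4.25, 4.35 and 6.82 FPKM in cKO females, against 3.05, 3.06 and 4.14 FPKM in control females, and 2.49, 2.95 and 2.69 FPKM in cKO males, against 2.13, 2.47 and 1.76 FPKM in control males. On subtracted levels Zfp78 was at 0 in cKO female 2 and no longer stood apart. Zfp264 was higher and Zfp456 was lower without overlap in both sexes on that scale, and neither passed the filter on low values. Of the 132 tested zinc finger genes 0 stood apart in both sexes in either direction on that scale. Of all genes tested 1.55% were higher and 0.943% lower. The genes listed in this paragraph were named after their values were seen.

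By position, 141 of the 178 genes stood in 12 clusters of at least 5 genes whose neighbours lie within 500 kb. The largest was chr13:66669928-67827002 (GRCm38) with 24 genes, followed by chr17:21008903-23599487 with 23, chr7:29768552-30169750 with 15, chr7:24081924-25227507 with 14 and chr17:32771236-33631779 with 13. The last of these had the highest median level, 8.09 FPKM, with Zfp955b, Zfp952 and Zfp955a among its genes. The smallest levels were those of chr7:4915217-5053723, where none of 6 genes passed the filter and the median was 1.62 FPKM. In males the cluster medians of the log2 change lay between -0.06 and 0.18, where the upper end is a cluster with 2 tested genes. In females they lay between -0.40 and 0.15, the lowest being that of chr7:127233061-127885996 with 8 tested genes. In the chromosome 13 cluster 7 of 16 tested genes had a positive estimate in males and 8 of 16 in females. In females 0 of 6 tested genes were positive in chr7:12415153-12985714, 2 of 13 in chr17:32771236-33631779, and 2 of 8 each in chr7:24081924-25227507 and chr7:127233061-127885996. The count was 5 of 7 each in chr7:42473386-43618285 and chr7:27689340-28380253, 10 of 20 in chr17:21008903-23599487 and 4 of 13 in chr7:29768552-30169750. It was 2 of 5 in chr7:6131491-6396915 and 1 of 2 in chr7:6977246-7209998. Over all 132 tested genes 53 were positive in females, and over all genes 7846 of 15054. Every cluster with 5 or more tested genes held estimates of both signs in males.

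**Figure D4:**
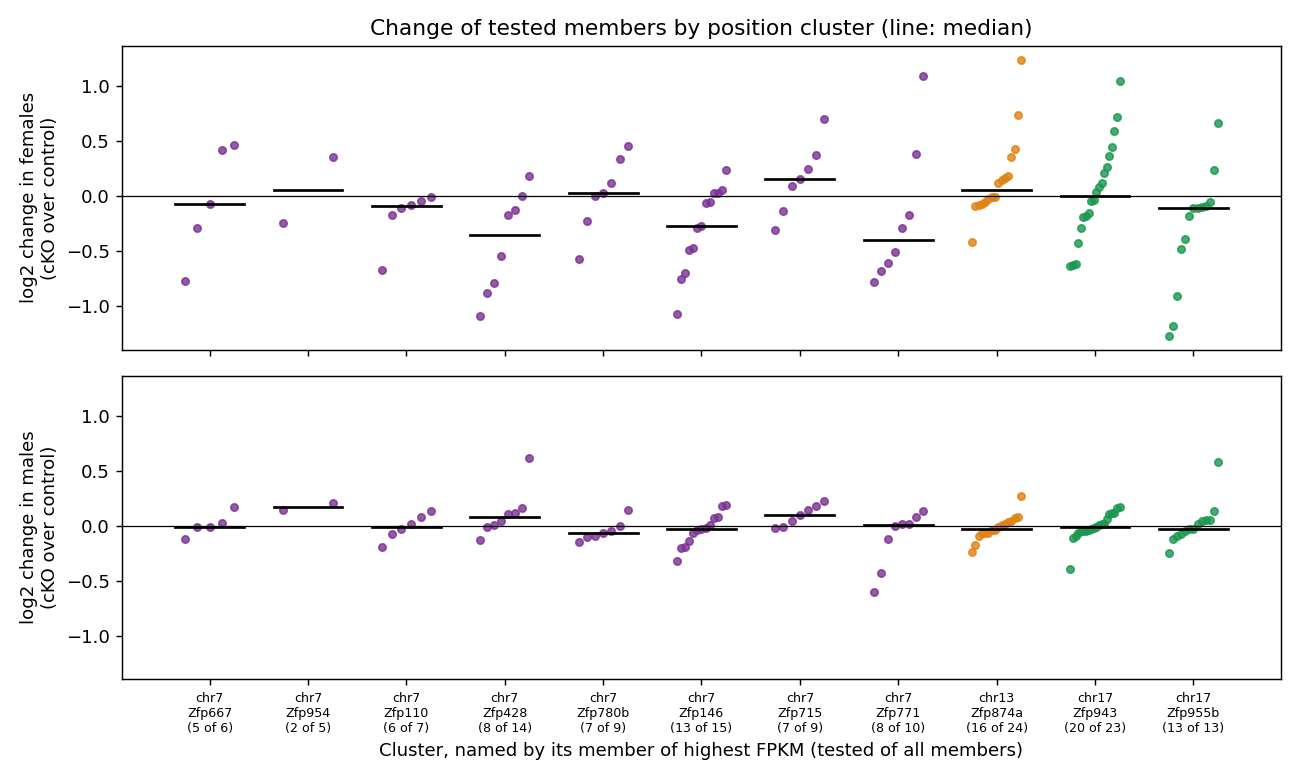
Log2 change, cKO over control, of the tested zinc finger genes in 11 position clusters in females (upper panel) and males (lower panel); lines are cluster medians. In males medians lie between -0.06 and 0.18 and in females between -0.40 and 0.15, with no gene called in either sex.

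Split by chromosome or number of linker matches, the medians lay close together, with no test of their differences. In males the median log2 change was 0.00 on chromosome 7, -0.01 on chromosome 13 and -0.01 on chromosome 17, over 66, 25 and 41 tested genes. In females it was -0.09, -0.01 and -0.09. Genes with 3 or more linker matches had medians of 0.00 in males and -0.05 in females over 96 tested genes, and those with fewer had -0.01 and -0.08 over 34. The 27 tested genes sharing at least 10% of their windows had medians of 0.02 in males and -0.09 in females. Of the Zfp genes of other chromosomes 167 were tested and limma called 0 in each comparison. An unadjusted p under 0.05 was reached by 44 in females (26.35%, against 29.3% of all genes) and 3 in males (1.80%, against 2.33%). Their medians were 0.01 in males and -0.01 in females.

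The other genes named for their roles were not called either. Zfp536, which restrains neuronal differentiation by retinoic acid, had 9.37, 11.9 and 12.5 FPKM in cKO females, against 9.40, 9.16 and 10.8 FPKM in control females. Its subtracted levels lay the other way, 2.50, 1.88 and 1.42 in cKO females against 2.74, 2.68 and 2.60 in control females (log2 -0.41, limma adjusted p = 0.173). In males its log2 change was 0.02 (95% interval -0.38 to 0.43). Zfp40 had a log2 change of 0.08 in females and -0.02 in males (95% interval -0.27 to 0.22), and Zfp507 one of -0.15 in females and 0.08 in males (-0.26 to 0.42). Zfp30, a KRAB gene known for its link to neutrophil recruitment in mouse lung, had a log2 change of -0.27 in females and -0.20 in males (-0.65 to 0.25). Zfp708, known to bind a class of retrotransposons, had 3.10, 0 and 3.92 FPKM in cKO females, against 2.03, 2.87 and 0.258 FPKM in control females. In males it had 3.29, 2.93 and 2.97 FPKM in cKO, against 3.36, 3.60 and 3.89 FPKM in control. The male groups stood apart, but with the spread estimated over all 4 groups its 95% interval in males was -1.77 to 1.30, and 94.3% of its windows were shared.

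KRAB corepressor, H3K9me3 and related chromatin genes were described by a list of 26, of which 25 were found and 24 tested. The list includes the targeted gene, Atrx, and genes such as Daxx, H3f3a and Dnmt1. Atrx was the 1 gene of the list called by limma, in females and in the mean of both sexes, with the losses of that call given above. Of all genes 0.0731% were called in females and 0.0332% in the mean. The list had a median log2 change of -0.04 in females and 0.03 in males, against 0.02 and 0.03 over all genes. Trim28, the KRAB corepressor, averaged 17.7 ± 1.82 FPKM in cKO females against 20.3 ± 0.677 FPKM in control females, and 15.7 ± 1.94 FPKM in cKO males against 13.9 ± 1.60 FPKM in control males (SD, n = 3 each). Setdb1 averaged 10.6 ± 3.89 FPKM in cKO females against 7.80 ± 0.108 FPKM in control females, and 6.76 ± 0.542 FPKM in cKO males against 6.01 ± 0.781 FPKM in control males (SD, n = 3 each). Its high female values, 13.2 and 12.4 FPKM, were those of cKO females 2 and 3, while cKO female 1, at 6.10 FPKM, lay below all control females. The part of the receptor background in these values was not tested. Daxx, the partner of ATRX, averaged 5.41 ± 0.810 FPKM in cKO females against 6.36 ± 0.973 FPKM in control females, and 5.25 ± 0.649 FPKM in cKO males against 5.25 ± 0.106 FPKM in control males (SD, n = 3 each). The log2 changes were -0.17 and 0.15 for Trim28, 0.21 and 0.10 for Setdb1 and -0.71 and 0.10 for Daxx in females and males, and the smallest limma adjusted p of the 3 genes was 0.145, for Daxx in females.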

How the data were processed

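Ribosomal RNA was removed and libraries made with the ScriptSeq Complete Gold kit, per the labels' protocols. The submitters' processing notes name HISAT2 2.0.4, StringTie and the genome build GRCm38.p6. The authors deposited FPKM and coverage for 137862 transcripts in each of 12 tables, without read counts, and trimming, strand use and annotation release are not given in the sources used here. Deposited FPKM was summed per gene for the levels printed. For the tests, FPKM times length was summed per gene and divided by its exon length in GENCODE M21 (54495 of 54532 genes matched). The median over 1437 receptor genes was subtracted in each library, values below 0 were set to 0, and libraries were scaled by median of ratios over coding genes averaging 5 or more. Genes averaging 1 or more, and reaching 1 in 3 libraries, were tested as log2(level + 0.5) with limma 3.58.1 (R 4.3.3; trend, robust, 4 group means, two-sided). P-values were adjusted over all 15054 genes at 0.05. The log2(level + 0.5) scale understates changes of low genes. The fit was also run on simulated data in which only coding genes at a level of 5 or more were changed. That run does not show how the fit performs for genes of lower level.

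Genes were named when called, when among the 4 of smallest p in each direction, when among the 8 of highest FPKM, or for a known role, with any other named as such in the text. The genes and lists were chosen with earlier results of these data known. Of the named list, Zfp274 and 2810474O19Rik were not found under these names. Protein features were not analysed here, and linker matches in coding sequences were used in their place.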

Additional observations from a re-analysis of the deposited data

How the results depend on the processing

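In males the count of called zinc finger genes was 0 in every alternative run: deposited FPKM with and without scaling, the background as a covariate, pseudocounts of 0.1 and 1, filters at 0.5 and none, quantile normalization, no scaling, males alone, and each library left out. In females the count was 18, all higher, on deposited FPKM without scaling, where 22.7% of all genes were called higher, 1 without cKO females 2 and 3 (0.0856% of all genes), 1 without control female 3 and cKO females 2 and 3 (0.0714%), and 0 to 47 with 1 library left out. For the mean of both sexes it was 1 without cKO females 2 and 3 and 0 to 33 with 1 library left out, and for the difference between the sexes 0 to 23. The upper ends of these ranges came from leaving out cKO female 1, where 38.6%, 29.7% and 19.3% of all genes were called against 36.4%, 25.6% and 17.8% of the zinc finger genes. The cause was not tested. Deposited FPKM scaled over genes above 0 in all libraries turned Zfp52 to -0.072 and Zfp141 to -0.17 in females, Zfp110 to -0.14 in males, and in the mean Zfp141 to -0.080, Zfp58 to -0.10 and Zfp367 to -0.28. Without scaling Zfp141 was -0.081 in females and Zfp367 -0.011 in the mean, and deposited FPKM turned Zfp346 to 0.16 in the mean. The all-gene median in females moved to 0.34 on that scaling, 0.88 on unscaled deposited FPKM, 0.26 with the covariate, -0.12 with quantile normalization and -0.46 without scaling. Of the other single-gene values, 18 passed the threshold under an alternative, 15 of them without cKO female 1 and 3 on deposited FPKM. Those of Zfp419, given above, are not in this count. Atrx was lower in cKO under each alternative run for it, with an exact p of 0.25 in each sex and 0.0313 over both when numbered pairs were sign-flipped, the smallest that test can give. The deviations of same-numbered libraries from their group means had correlations of 0.153, -0.303 and 0.379 in females and 0.04, -0.097 and 0.197 in males. With 3 libraries a group these values cannot decide whether the numbers mark pairs, and the main fit has no block. A fit with the replicate number as a block called 0 zinc finger genes, and 0 of all genes, in each comparison. Its limma adjusted p for Atrx was 0.127 in females and 0.230 in the mean. Leaving out cKO male 2 was planned among the single libraries and singled out again after the data were seen, for its background. Without counts, the counting error of each level is unknown. Deposited FPKM is summed over transcripts and the receptor background is counted over all exons of a gene, so they are not on 1 scale. In cKO female 3, 35 of the 178 genes were at 0 after subtraction, where the lower quartile of deposited FPKM was 3.72. Genes well above 2 FPKM can thus lie at the background, as Zfp346 and Zfp78 did in cKO female 2.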
